A study of Mus musculus with 36 samples.

Results

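The 8 genes followed here through a time course of mouse embryonic stem cells mark or drive endoderm: Gata4, Gata6, Sox17, Sox7, Foxa2, Hnf4a, Dab2 and Pdgfra. They were chosen by name, with earlier results of these data known. All 8 were found among the 55335 genes of the deposited count table. They passed the filter on low counts, which left 17394 genes for testing. Polyadenylated RNA was sequenced from cells treated with BPK25, IAA or DMSO and taken at days 0, 2, 4 and 6. BPK25 is named in the labels by code alone. IAA is auxin, a plant hormone used to destroy proteins that carry a degron tag, and DMSO is a common solvent for compounds.

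Each of the 12 groups of treatment and day held 3 libraries. The 36 libraries had totals of 6621288 to 16497799 counts. All cells are labelled mESC, with no line named. The culture described is medium with serum replacement and the cytokine LIF, typically on irradiated mouse fibroblast feeders. Whether cells of days 2, 4 and 6 were kept in that medium is not established here. The labels leave unstated the tagged protein, the doses, the start of the day count and whether the groups share a clone. The 3 libraries of a group are not said to come from separate cultures. Each p-value therefore reflects the scatter among libraries within groups, taken over all 12 groups in 1 fit, and this scatter is possibly technical. The summed level of 8 defining markers of pluripotent cells was 768.8 to 791.5 CPM (reads of a gene over the scaled total of its library) in DMSO libraries at day 6 and 2861 to 2924 CPM in DMSO libraries at day 0, with none of the 8 at 0. Over all tested genes, BPK25 day 4 lay nearest to IAA day 2, at a root mean square log2 distance of 0.506, and the other BPK25 groups lay nearest to a BPK25 or DMSO group, at 0.229 to 0.233.

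In the early mouse embryo, inner cell mass cells choose between epiblast, which keeps NANOG, and primitive endoderm, which keeps GATA6 under FGF signalling through ERK. GATA6 acts early in that choice, and GATA4, SOX17 and SOX7 follow as the cells become extraembryonic endoderm. Embryonic stem cells can take a similar path in culture, and several of these genes are used again in the definitive endoderm of the later embryo.

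Since each library is a bulk sample, fewer cells of a type and less RNA per cell cannot be told apart. Levels are given in CPM on scaled library totals, with the SD over 3 libraries, and are compared between genes only per kilobase of merged exons. On that scale Dab2 was the highest of the 8 genes in every group, at 29.1 to 89.1 CPM per kilobase, and Hnf4a the lowest, at 1.01 to 2.06 CPM per kilobase. On GRCm38 (GENCODE M21), Gata4 lies on chromosome 14 at 63198922-63271692 (minus strand), Sox7 on the same chromosome at 63943673-63950732 (plus), Gata6 on chromosome 18 at 11052064-11085635 (plus) and Sox17 on chromosome 1 at 4490931-4497354 (minus). Foxa2 and Hnf4a lie on chromosome 2, at 148042877-148046969 (minus) and 163506808-163572910 (plus). Counts behind these levels ran between 31 and 128 per library for Hnf4a and between 1473 and 8649 for Dab2. A log2 fold change is followed by ± its approximate standard error, and a gene was called where the adjusted p of edgeR's quasi-likelihood test (Benjamini-Hochberg over all 17394 genes) was under 0.05.

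In DMSO, 7 of the 8 genes were higher at day 6 than at day 0 and Hnf4a was lower. All 8 were called, beside 62.7% of all tested genes (33.2% higher, 29.5% lower), and the median log2 fold change was 0.76 for the 8 genes and 0.03 for all tested genes. Foxa2, a winged-helix factor that opens chromatin in endoderm and in the node, had the largest rise of the 8. Its level was 30.0, 32.8 and 32.0 CPM at day 6, against 8.18, 10.2 and 12.6 CPM at day 0, a log2 fold change of 1.62 ± 0.11. The days did not overlap, beside a share of all tested genes that is not given for this comparison. The 3 day 0 libraries spread more widely in proportion than those of day 6. Sox17, an SRY-box factor of both endoderm types, had 60.2, 61.0 and 59.3 CPM at day 6, against 26.2, 28.1 and 35.1 CPM at day 0 (log2 fold change 1.02 ± 0.08). Hnf4a, a nuclear receptor of visceral endoderm and liver, had 6.03, 4.06 and 5.80 CPM at day 6, against 9.55, 9.45 and 10.9 CPM at day 0 (log2 fold change -0.87 ± 0.15). Hnf4a was the only 1 of the 8 that fell by day 6.

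The DMSO course did not run evenly. At day 2, 4 genes were lower than at day 0 and none was higher, beside 5.44% of all genes called (1.59% higher, 3.85% lower): Gata6 fell by 0.31 on the log2 scale, Sox7 by 0.34, Dab2 by 0.24 and Pdgfra by 0.19. The Sox7 call was lost without DMSO day 0 replicate 1 or 2 or DMSO day 2 replicate 1 or 3 (log2 fold changes of -0.42 to -0.24 over the libraries left out), and the Pdgfra call was lost without DMSO day 2 replicate 3. With only the libraries compared, both calls were lost (adjusted p = 0.0700 for Sox7 and 0.0637 for Pdgfra, edgeR). Without a filter the Pdgfra call was lost as well (adjusted p = 0.0680, edgeR). Hnf4a missed the threshold at day 2 (log2 fold change -0.50 ± 0.16, adjusted p = 0.0501, edgeR) and passed it without DMSO day 2 replicate 3 (-0.75, adjusted p = 0.0142). At day 4, Sox17, Sox7, Foxa2 and Pdgfra were higher than at day 0 and Hnf4a was lower, beside 50.3% of all genes called (26.0% higher, 24.4% lower). Sox7 and Foxa2 had log2 fold changes of 0.61 ± 0.09 and 0.60 ± 0.13 at day 4. Gata4, Gata6 and Dab2 did not pass the test at day 4 and were called higher at day 6, with log2 fold changes of 0.90, 0.49 and 0.52.

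**Figure D1:**
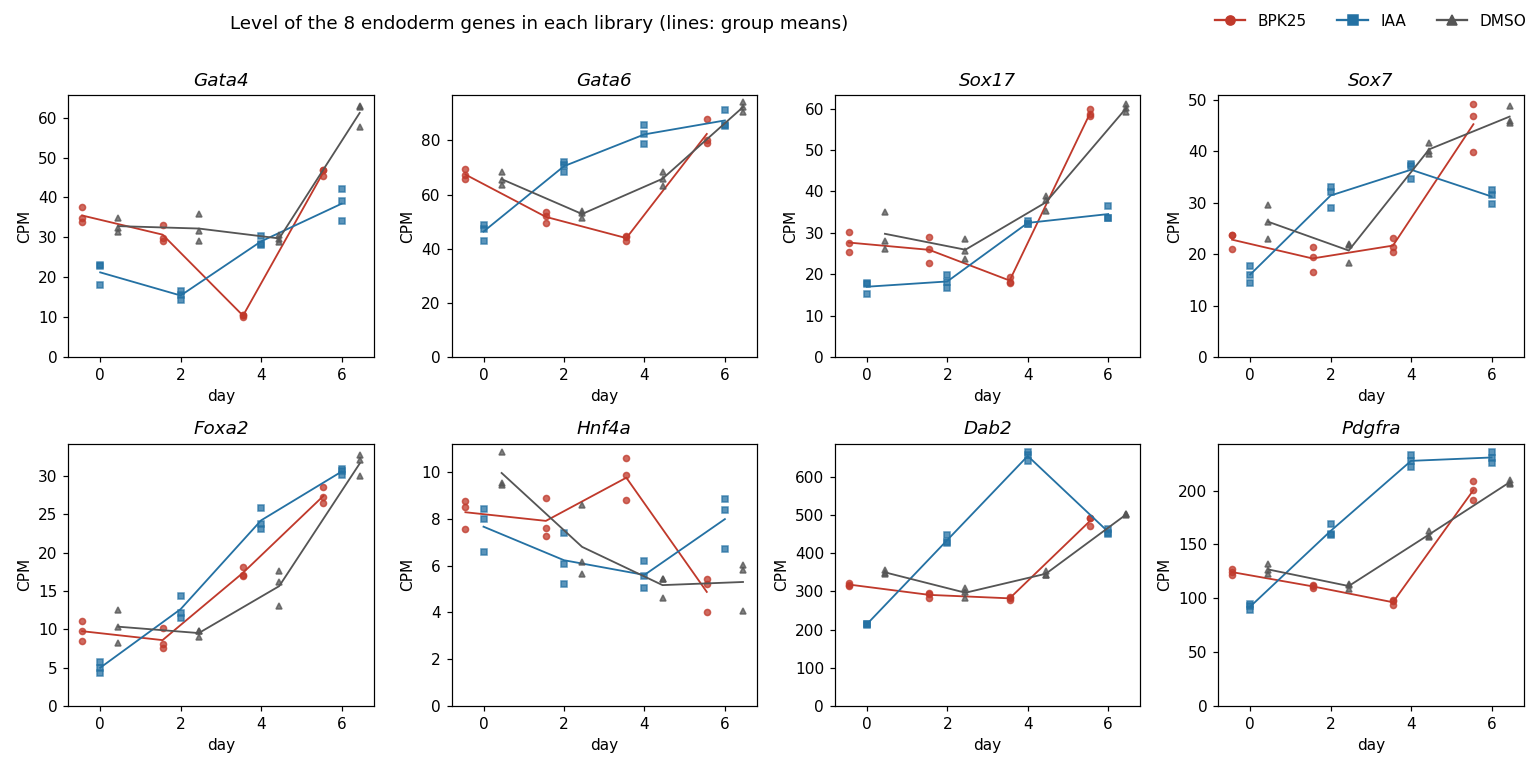
Level of each of the 8 genes in CPM (vertical axes from 0) at days 0, 2, 4 and 6 (horizontal axes, treatments set side by side within a day). Points are single libraries, lines join group means, and colours and shapes mark BPK25, IAA and DMSO. Gata4 in BPK25 at day 4 sits at 10.1 to 10.6 CPM, the lowest group of that gene, and Dab2 in IAA at day 4 at 642 to 664 CPM, the highest group of that gene.

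At day 0, all 8 genes were lower in IAA than in DMSO, and the libraries of the 2 groups did not overlap for any of them. By comparison 44.5% of all tested genes were called, 21.3% as higher and 23.2% as lower, and libraries failed to overlap for 52.0%. The median log2 fold change was -0.67 for the 8 genes and -0.03 for all tested genes. Dab2, a clathrin adaptor that takes up receptors such as megalin in visceral endoderm, had 215, 212 and 214 CPM in IAA libraries, against 355, 347 and 347 CPM in DMSO libraries (log2 fold change -0.71 ± 0.04, adjusted p = 3.21e-21). Foxa2 had 4.91, 4.34 and 5.67 CPM in IAA libraries, against 8.18, 10.2 and 12.6 CPM in DMSO libraries (-1.06 ± 0.16). These are the smallest adjusted p and the largest fold change of the 8 on that day. Gata4 and Gata6 fell by 0.64 and 0.51 on the log2 scale, Sox17 and Sox7 by 0.80 and 0.72, and Pdgfra by 0.46. The Hnf4a call was marginal: its log2 fold change was -0.38 ± 0.16 (adjusted p = 0.0452, edgeR). Hnf4a lost the call without any 1 of the 3 DMSO day 0 libraries or without IAA day 0 replicate 2 or 3 (-0.46 to -0.26 over the libraries left out). The call was also lost without a filter (adjusted p = 0.111, edgeR) and with DESeq2's Wald test (adjusted p = 0.0880).

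At day 2, IAA moved the 8 genes in different directions. Gata6, Sox7, Foxa2, Dab2 and Pdgfra were higher than in DMSO, Gata4 and Sox17 were lower, and Hnf4a was not called, beside 55.4% of all genes called (27.5% higher, 27.9% lower). Gata4 had 15.5, 14.3 and 16.5 CPM in IAA libraries, against 31.5, 29.2 and 35.9 CPM in DMSO libraries (log2 fold change -1.07 ± 0.09, adjusted p = 2.16e-14). Gata6 had 71.9, 68.4 and 71.0 CPM in IAA libraries, against 51.2, 53.3 and 54.0 CPM in DMSO libraries (0.41 ± 0.05). The 2 zinc-finger GATA factors, which bind the same core motif, thus had opposite calls in the same libraries. The SRY-box pair also split: Sox17 fell by 0.51 ± 0.09 on the log2 scale and Sox7 had a log2 fold change of 0.58 ± 0.09. Foxa2 had a log2 fold change of 0.40 ± 0.13, which lost its call without IAA day 2 replicate 1 (0.32, adjusted p = 0.0526, edgeR).

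**Figure D2:**
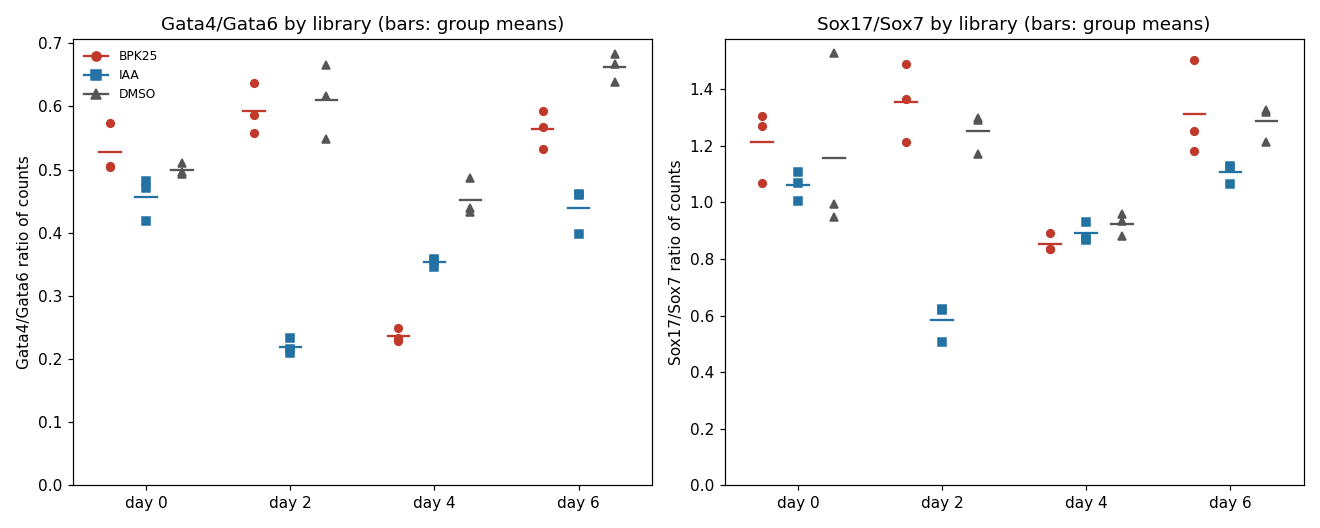
Ratio of Gata4 to Gata6 counts and of Sox17 to Sox7 counts (vertical axes from 0, no unit) in each library by day, with BPK25, IAA and DMSO marked by colour and shape and bars at group means. Counts are not corrected for exon length, so the ratios compare groups and not the 2 genes. The Gata4 to Gata6 ratio is lowest in IAA at day 2 (0.209 to 0.233) and in BPK25 at day 4 (0.229 to 0.249).

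Within a library, the ratio of Gata4 to Gata6 counts does not depend on the scaling of libraries. Neither this ratio nor that of Sox17 to Sox7 is corrected for exon length. Both therefore compare groups and do not say which gene is higher. The Gata4 to Gata6 ratio was 0.219 ± 0.012 in IAA at day 2 and 0.610 ± 0.059 in DMSO at day 2. The ratio was 0.237 ± 0.010 in BPK25 at day 4 and 0.453 ± 0.029 in DMSO at day 4. The other 10 groups lay between 0.353 and 0.663, so that the plot of ratios shows both groups apart from the rest. The Sox17 to Sox7 ratio was 0.584 ± 0.066 in IAA at day 2 and 1.253 ± 0.071 in DMSO at day 2. In BPK25 at day 4 it was 0.854 ± 0.032, and 0.925 ± 0.040 in DMSO at day 4. The difference between groups in these ratios was not tested.

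By day 4 Dab2 and Pdgfra reached their highest or near highest levels in IAA. In all, 4 genes rose (Gata6, Foxa2, Dab2 and Pdgfra), Sox17 fell and 3 were not called, beside 51.9% of all genes called (25.9% higher, 25.9% lower). Dab2 had 664, 642 and 657 CPM in IAA libraries, against 354, 341 and 343 CPM in DMSO libraries (log2 fold change 0.92 ± 0.04, adjusted p = 3.7e-27). Pdgfra, the receptor for PDGF-A and an early surface marker of primitive endoderm, had 222, 228 and 233 CPM in IAA libraries, against 163, 158 and 157 CPM in DMSO libraries (0.51 ± 0.04). No IAA library of either gene overlapped a DMSO library. The share of all tested genes without overlap is not given for this comparison, and it was 52.0% at day 0. Gata4 had 28.1, 30.5 and 28.4 CPM in IAA libraries, against 29.6, 28.9 and 30.7 CPM in DMSO libraries, and its interval of -0.19 to 0.13 holds no change. The Sox17 call (-0.20 ± 0.08, adjusted p = 0.0224, edgeR) was lost without replicate 1 or 3 of either group, with log2 fold changes of -0.25 to -0.17 over the libraries left out. Without a filter it was lost too (adjusted p = 0.0787, edgeR).

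The sequence upstream of Dab2 and Pdgfra is shown because, of the 4 among the 8 genes that matched the RefSeq promoter table (GRCm38.p6), these 2 moved most alike over the groups. Dab2 lies on chromosome 15 at 6299788-6440712 on the plus strand and Pdgfra on chromosome 5 at 75152292-75198215 on the plus strand (GRCm38, GENCODE M21). Capitals mark GATAA, the core of sites for GATA factors, searched on both strands together with ACAAT, the core for SOX factors, and TGTTTAC, for forkhead factors. A longer form, AGATAA, which contains GATAA, was searched first and is in neither window. The shorter GATAA was taken up only after these windows had been read, so its match was found by a second search.
Dab2 (chr15:6299539-6299787, plus strand): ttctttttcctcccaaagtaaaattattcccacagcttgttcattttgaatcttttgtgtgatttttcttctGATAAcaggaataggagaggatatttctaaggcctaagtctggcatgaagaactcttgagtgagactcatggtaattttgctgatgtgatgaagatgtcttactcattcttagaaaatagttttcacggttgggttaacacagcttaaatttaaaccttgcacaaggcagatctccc
Pdgfra (chr5:75152001-75152250, plus strand): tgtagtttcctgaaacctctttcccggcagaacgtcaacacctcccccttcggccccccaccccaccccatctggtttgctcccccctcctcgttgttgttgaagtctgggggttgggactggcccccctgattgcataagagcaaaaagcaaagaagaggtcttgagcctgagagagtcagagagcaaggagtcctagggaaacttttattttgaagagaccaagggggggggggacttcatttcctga
The Dab2 window holds 1 GATAA and none of ACAAT and TGTTTAC, and the Pdgfra window holds none of them. Of 32851 windows of 250 bases in the table, 9.99% hold AGATAA, 22.6% GATAA, 27.7% ACAAT and 3.17% TGTTTAC.

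At day 6, 6 of the 8 genes differed between IAA and DMSO. Sox17 fell by 0.79, Gata4 by 0.67 and Sox7 by 0.58 on the log2 scale, Dab2 by 0.14, and Hnf4a and Pdgfra rose, beside 60.6% of all genes called (30.6% higher, 30.0% lower). Gata4 had 39.2, 34.1 and 42.0 CPM in IAA libraries, against 63.0, 57.7 and 62.8 CPM in DMSO libraries. Hnf4a had 8.37, 6.72 and 8.86 CPM in IAA libraries, against 6.03, 4.06 and 5.80 CPM in DMSO libraries (log2 fold change 0.57 ± 0.15, adjusted p = 0.00139, edgeR). Gata6 and Foxa2 had log2 fold changes of -0.08 (interval -0.18 to 0.01) and -0.04 (interval -0.20 to 0.12) and were not called. Whether the IAA effect differed between days was tested jointly, and all 8 genes passed, beside 70.1% of all tested genes.

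Between BPK25 and DMSO, few of the 8 genes were called at days 0, 2 and 6, and 7 of them were called at day 4. A gene not called may still differ. Sox7 at day 0 (interval -0.41 to -0.03) and Foxa2 at day 6 (-0.36 to -0.03) had unadjusted intervals wholly below no change. For the other uncalled genes on days 0, 2 and 6 the interval held no change. At day 0 Dab2 alone was called, beside 7.90% of all genes (3.32% higher, 4.58% lower): it had 317, 315 and 322 CPM in BPK25 libraries, against 355, 347 and 347 CPM in DMSO libraries (log2 fold change -0.14 ± 0.04, adjusted p = 0.0112, edgeR). That call was lost without DMSO day 0 replicate 1 (-0.13, adjusted p = 0.0597, edgeR) and without a filter (-0.12, adjusted p = 0.214, edgeR). At day 2 edgeR's quasi-likelihood test called 0 of the 8, beside 13.5% of all genes (6.40% higher, 7.12% lower). DESeq2 also called 0, and 0 of the 8 had an unadjusted p under 0.05. Intervals at day 2 were within -0.43 and 0.47 on the log2 scale for all 8 genes, the widest for Hnf4a.

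At day 4, 6 of the 8 genes were lower in BPK25 than in DMSO and Hnf4a was higher, while 53.0% of all genes were called, 26.8% lower and 26.2% higher. The median log2 fold change was -0.66 for the 8 genes and -0.01 for all tested genes. Gata4 had 10.4, 10.1 and 10.6 CPM in BPK25 libraries, against 29.6, 28.9 and 30.7 CPM in DMSO libraries (log2 fold change -1.51 ± 0.10, adjusted p = 2.66e-18). Sox17 had 18.2, 19.3 and 17.9 CPM in BPK25 libraries, against 38.9, 35.4 and 37.9 CPM in DMSO libraries (-1.02 ± 0.09). Sox7 had 20.5, 23.2 and 21.5 CPM in BPK25 libraries, against 41.6, 40.1 and 39.5 CPM in DMSO libraries (-0.91 ± 0.09). For each of these 3 transcription factors the libraries of the groups did not overlap. The share of all tested genes without overlap is not given for BPK25. Pdgfra fell by 0.72 ± 0.04 on the log2 scale, Gata6 by 0.59 ± 0.06 and Dab2 by 0.30 ± 0.04. Hnf4a had 10.6, 9.87 and 8.79 CPM in BPK25 libraries, against 4.62, 5.43 and 5.43 CPM in DMSO libraries (0.93 ± 0.16, adjusted p = 1.7e-06). Foxa2 was not called (0.16 ± 0.10, interval -0.05 to 0.37, adjusted p = 0.198, edgeR), and passed without DMSO day 4 replicate 2 (0.28, adjusted p = 0.0485).

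At day 6 Gata4 and Gata6 were lower in BPK25 than in DMSO, beside 7.09% of all genes called (4.01% higher, 3.08% lower). Gata4 had 46.9, 45.4 and 46.8 CPM in BPK25 libraries, against 63.0, 57.7 and 62.8 CPM in DMSO libraries (log2 fold change -0.40 ± 0.06, adjusted p = 3.5e-05). The Gata6 value of -0.16 ± 0.05 (adjusted p = 0.027, edgeR) lost its call without BPK25 day 6 replicate 1 or 2 or DMSO day 6 replicate 1 or 3, with values of -0.21 to -0.13 over the libraries left out. The Gata6 call was also lost without a filter, with only the libraries compared and with DESeq2 (adjusted p = 0.0926, Wald test). A joint test of whether the BPK25 effect differed between days called 7 of the 8 genes, all but Foxa2, beside 47.1% of all genes. Over days 0, 2 and 6 alone it called Gata4 only (adjusted p = 0.00124), beside 8.05% of all genes, an alternative added after the data were seen.

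**Figure D3:**
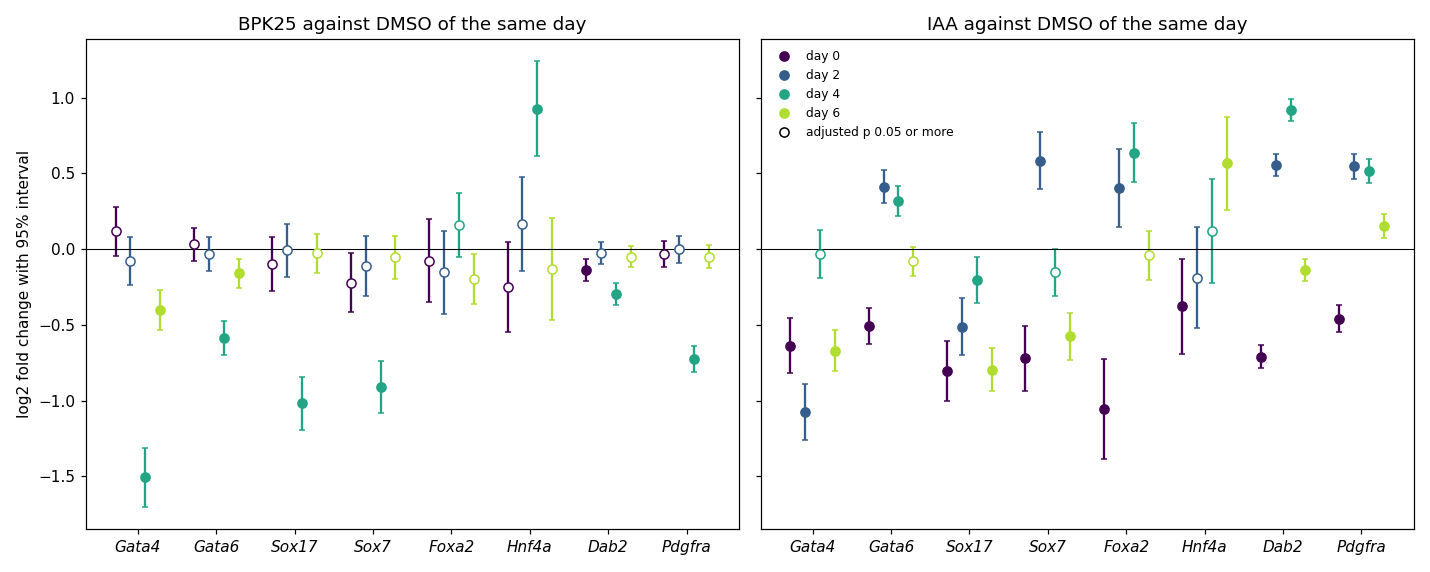
Log2 fold change of each of the 8 genes against DMSO of the same day, for BPK25 on the left and IAA on the right, with 95% intervals as bars; colours mark days 0, 2, 4 and 6 and open points were not called. In BPK25 the day 4 points stand apart from the other days, with Gata4 at -1.51 and Hnf4a at 0.93, while IAA points of Dab2 run from -0.71 at day 0 to 0.92 at day 4.

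Set directly against each other on the same day, the 2 treatments differed for most of the 8 genes. At day 0, 7 were higher in BPK25 than in IAA and Hnf4a was not called, beside 47.9% of all genes called (24.8% higher, 23.1% lower). At day 2, Gata4, Sox17 and Hnf4a were higher in BPK25 and the other 5 lower, beside 57.5% of all genes (29.2% higher, 28.4% lower). The Hnf4a call was lost without BPK25 day 2 replicate 1 or 3 or IAA day 2 replicate 2 or 3, without a filter and with DESeq2. At day 4, 7 were lower in BPK25 and Hnf4a was higher, beside 54.3% (27.2% higher, 27.1% lower). Dab2 had 283, 285 and 277 CPM in BPK25 libraries at day 4, against 664, 642 and 657 CPM in IAA libraries (log2 fold change -1.22 ± 0.04). Pdgfra had 97.1, 93.7 and 98.1 CPM in BPK25 libraries, against 222, 228 and 233 CPM in IAA libraries (-1.24 ± 0.04). At day 6, Gata4, Sox17, Sox7 and Dab2 were higher in BPK25 and Hnf4a and Pdgfra were lower, beside 56.6% (27.7% higher, 28.8% lower), with the Dab2 call (0.09 ± 0.04) lost without replicate 2 or 3 of either group, with RLE scaling, without a filter and with only the libraries compared. The BPK25 and IAA comparisons with DMSO share the DMSO libraries of each day.

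Ordered by level, 5 of the 8 genes (Gata4, Gata6, Sox17, Sox7 and Foxa2) were highest in DMSO at day 6, Dab2 in IAA at day 4, Pdgfra in IAA at day 6 and Hnf4a in DMSO at day 0. Gata4 and Gata6 were lowest in BPK25 at day 4, Hnf4a in BPK25 at day 6, and the other 5 in IAA at day 0. Only for Gata4 and Dab2 were the libraries of the highest group clear of those of the next group. The lowest group was clear of its neighbour only for Gata4, Foxa2 and Dab2, so the other top and bottom ranks are not resolved. The highest group mean was 6.35 times the lowest for Foxa2, 5.88 times for Gata4 and 2.04 times for Hnf4a. Neighbours in this order overlapped in 10 of 11 pairs for Hnf4a and in 3 of 11 pairs for Dab2, so the order is best resolved for Dab2.

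**Figure D4:**
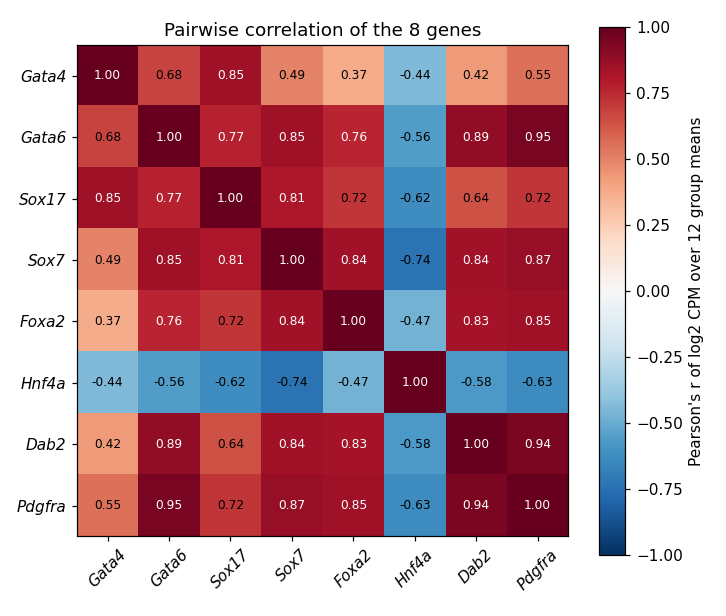
Pearson's r between each pair of the 8 genes over the 12 group means of log2 CPM, from -1 in blue to 1 in red, with each r printed. Hnf4a is negative with all 7 others, and Gata6, Dab2 and Pdgfra form the tightest block.

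Over the 12 group means, which share libraries, scaling and the day course, log2 levels of Gata6 and Pdgfra had a Pearson's r of 0.95, Dab2 and Pdgfra 0.94, and Gata4 and Sox17 0.85. Gata4 and Foxa2 had an r of 0.37. Hnf4a was negative with the other 7, at -0.74 to -0.44. By the same measure, the genes outside the 8 most like each one, among 11754 candidates, were Chst15, Cemip and Serpinb6c for Gata4 (r of 0.98 each), Trpm6 for Sox17 (0.99), Tax1bp3 and Smpd1 for Foxa2 (0.99 each), Klb for Gata6 (0.96), Mblac2 for Sox7 (0.96), Lrpap1 for Dab2 (0.94), Gak for Pdgfra (0.97) and Wsb1 for Hnf4a (0.92). By rank correlation other genes came first for most: only 7 of the 24 genes in the 8 lists of the top 3 were shared.

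Genes with known links to the 8 were counted in lists, to be read against all tested genes, of which 44.5%, 55.4%, 51.9% and 60.6% were called in IAA at days 0, 2, 4 and 6 and 53.0% in BPK25 at day 4. Of 22 products of extraembryonic endoderm (secreted carriers, basement membrane chains, uptake receptors), 2 rose and 15 fell in IAA at day 0, 11 rose and 5 fell at day 2, 16 rose and 4 fell at day 4 and 12 rose and 6 fell at day 6. Their median log2 fold changes on these days were -0.44, 0.24, 0.70 and 0.49, against -0.03 to 0.0014 over all tested genes. At day 6 the median of this list was thus above 0, while Sox17, Gata4, Sox7 and Dab2 were lower in IAA. On that day Hnf4a and Pdgfra were higher in IAA, and Gata6 and Foxa2 were not called. In BPK25 at day 4, 12 rose and 10 fell, with a median of 0.45. In BPK25 at day 4 Afp, alpha-fetoprotein of the visceral endoderm, had 24.7 ± 2.1 CPM, against 0.901 ± 0.149 CPM in DMSO (log2 fold change 4.76 ± 0.19), and Apob, the structural protein of lipoproteins, had 114 ± 5 CPM, against 10.6 ± 0.9 CPM (3.44 ± 0.08). Thrombomodulin, Thbd, a parietal endoderm gene, fell by 4.14 ± 0.51 on the log2 scale there. Of 12 partners of Dab2 in uptake, 2 rose and 7 fell in IAA at day 0, 6 rose and 2 fell at day 2, 8 rose and 1 fell at day 4 and 4 rose and 6 fell at day 6, with medians of -0.18, 0.18, 0.25 and -0.09. In BPK25 at day 4, 5 rose and 3 fell (median 0.15). Cubn, the receptor cubilin, had 799 ± 9 CPM in IAA at day 4, against 224 ± 8 CPM in DMSO (1.84 ± 0.04). Of 13 tested other endoderm regulators, 3 rose and 3 fell in IAA at day 0, 4 and 4 at day 2, 6 and 2 at day 4 and 7 and 5 at day 6, and 4 rose and 7 fell in BPK25 at day 4. The 8 of 13 called in IAA at day 4 are near the share of all genes. Foxa1, the close relative of Foxa2, had 21.9 ± 0.6 CPM in IAA at day 4, against 10.1 ± 0.4 CPM in DMSO (1.11 ± 0.11).

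Markers of other cells moved with the treatments as well. The summed level of 15 cardiac and other mesoderm markers was 123 to 128 CPM in IAA libraries at day 4 and 23.5 to 24.8 CPM in DMSO libraries, with none at 0 in either group. For 12 fibroblast markers, which feeders would carry and some of which are made by differentiating cells, it was 340.8 to 348.7 CPM in IAA at day 6 and 187.9 to 196.6 CPM in DMSO, and 98.0 to 105.1 CPM in BPK25 at day 4 and 102.8 to 114.9 CPM in DMSO, where Dcn and Lum were at 0 in BPK25. Of the 11 tested fibroblast markers, 7 rose and 3 fell in IAA at day 6 (median log2 fold change 0.86). In BPK25 at day 4, 2 of them rose and 4 fell (median -0.33). Of all tested genes, 60.6% and 53.0% were called in these 2 comparisons. For 10 trophectoderm markers the sum was 200.2 to 210.7 CPM in BPK25 and 333.8 to 348.0 CPM in IAA at day 4. It was 83.9 to 85.4 CPM in DMSO on that day. At day 6 the sum was 471 to 499 CPM in IAA, against 161 to 167 CPM in DMSO. Of the 8 tested trophectoderm markers, 6 rose in BPK25 at day 4 (median log2 fold change 1.08), 4 in IAA at day 4 (1.86) and 7 in IAA at day 6 (1.47), and none fell. Over all tested genes, 26.2%, 25.9% and 30.6% were called higher in these comparisons. The list includes the keratins Krt7, Krt8 and Krt18, and Hand1, which is also in the mesoderm list. The part of each gene in this sum was not tested. For 11 endothelial markers, a lineage that also uses SOX17 and SOX7, the sum was 247 to 264 CPM in BPK25 at day 4 and 143 to 146 CPM in DMSO, where Emcn was at 0 in BPK25. That sum was mostly Pecam1, at 217 ± 6.62 CPM in BPK25 and 93.0 ± 1.53 CPM in DMSO (SD, n = 3 each), and of the 10 tested endothelial markers 2 rose and 3 fell, with a median of -0.29. Of 6 tested floor plate and notochord markers, cells that also use FOXA2, 3 rose and 1 fell in IAA at day 4, where 51.9% of all tested genes were called. The part of these cells in the results was not tested. 1010001N08Rik, on the opposite strand to Gata6, held 2197 counts over all libraries, 9.21% of the 23861 of Gata6, and the sources used here do not say whether reads were counted by strand.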

How the data were processed

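Libraries of polyadenylated RNA from mouse embryonic stem cells were prepared with a SMARTer kit, per the labels' protocols. The submitters' processing notes name the genome mm10 and the tools featureCounts 2.0.1, HISAT2 2.1.0, FastQC 0.11.7 and DESeq2. Raw counts for each gene and library were deposited by the authors as 1 table. Whether counting used strand, and the annotation release, are not given in the sources used.

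From those counts, genes were kept with filterByExpr (minimum count 10, total 15), scaled by TMM, and tested in edgeR 4.0.16 (R 4.3.3) with the quasi-likelihood test, all 36 libraries in 1 fit of 12 groups, two-sided, Benjamini-Hochberg adjusted. The standard error is the log2 fold change over the square root of F. The test was tried on simulated data, with changes put into 50 genes per fold size in BPK25 at day 0. These were rises in 200 of 17394 genes, each of at least 1 CPM, with the groups otherwise alike. The test recovered 50% of 1.25-fold, 72% of 1.5-fold, 92% of 2-fold and 100% of 4-fold changes, so small changes can be missed. Of its calls, 3.68% were false. In the data 5.44% (DMSO day 2 against day 0) to 62.7% (DMSO day 6 against day 0) of genes were called, so these rates need not hold there. Replicate pairs differed by more than sampling noise (chi-square per degree of freedom 1.38 to 3.07 in 36 pairs). Exon lengths came from GENCODE M21. Of each list, up to 4 called genes with the largest fold changes and a mean of at least 1 CPM could be named. The 8 genes and the lists were chosen with earlier results of these data known. Alternatives were RLE scaling, DESeq2 1.42.0, no filter, a stricter filter, only the libraries compared, a replicate block and leaving out each library.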

Additional observations from a re-analysis of the deposited data

Results flagged for a closer look

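Effects that differed between days, by the joint edgeR quasi-likelihood test with Benjamini-Hochberg adjustment, were drawn out for a closer look. For BPK25 the adjusted p was 1.35e-14 for Gata4, 7.24e-09 for Gata6, 1.48e-10 for Sox17, 4.92e-08 for Sox7, 4.49e-05 for Hnf4a, 4.45e-05 for Dab2 and 1.77e-15 for Pdgfra. In all 7 the day 4 log2 fold change was the largest in size of the 4 days. For IAA the adjusted p was 2.46e-09 for Gata4, 2.53e-14 for Gata6, 8.69e-06 for Sox17, 7.99e-12 for Sox7, 6.03e-10 for Foxa2, 0.00116 for Hnf4a, 1.42e-30 for Dab2 and 7.12e-20 for Pdgfra. Under IAA, Gata6, Sox7, Foxa2, Hnf4a, Dab2 and Pdgfra had called values of both signs over the days, while Gata4 and Sox17 had called values only below DMSO. The fall of Hnf4a at day 0 was a marginal call, lost in several settings.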

How the results depend on the processing

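Of 82 calls among 120 comparisons of the 8 genes, 73 were kept in every setting and 9 were lost in at least 1. Without a filter, 0 genes were called for BPK25 against DMSO at day 0 (1 in the fit reported), and for day 6 the count was 1 without a filter, 1 with only the libraries compared and 1 with DESeq2 (2 reported). DMSO day 2 against day 0 gave 2 with only the libraries compared, 3 without a filter and 5 with RLE (4 reported). IAA against DMSO gave 7 at day 0 without a filter and with DESeq2 (8 reported), and 4 at day 4 without a filter (5 reported). BPK25 against IAA gave 7 at day 2 without a filter and with DESeq2 (8 reported). At day 6 that comparison gave 5 with RLE, without a filter and with only the libraries compared (6 reported). The joint BPK25 test over days 0, 2 and 6 only gave 1 (7 reported). The joint tests were not run in DESeq2. Leaving out 1 library gave 0 to 1 calls for BPK25 at day 0 and 1 to 2 for BPK25 at day 6. Signs turned only among values that were not called: Gata6 in DMSO at day 4 against day 0 was -0.003401 with RLE, -0.008009 with only the libraries compared and -0.003214 with DESeq2, and Pdgfra in BPK25 at day 2 was 0.005469 without a filter. Leaving out 1 library moved such values over these log2 ranges: in BPK25 at day 0, Foxa2 -0.219 to 0.0756 and Sox17 -0.182 to 0.0253; in BPK25 at day 2, Dab2 -0.0601 to 0.00161, Gata4 -0.146 to 0.0206, Pdgfra -0.021 to 0.0093 and Sox17 -0.100 to 0.0773; in BPK25 at day 6, Sox7 -0.114 to 0.0393; in IAA at day 2, Hnf4a -0.306 to 0.0619; in DMSO at day 2, Foxa2 -0.262 to 0.0326 and Gata4 -0.115 to 0.0519; and in DMSO at day 4, Gata6 -0.0225 to 0.0371. The cause was not tested. Replicate numbers did not pair the libraries (correlation of same-numbered deviations -0.028 to 0.047 over 45 pairs, 15 of 45 best with their own number). With a replicate block, DMSO day 2 against day 0 gave 5 calls, with Hnf4a at -0.51 (adjusted p = 0.0407, edgeR), and the other counts of calls were the same. Low counts limit Hnf4a most, at 31 to 128 per library.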

Other observations

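Signalling genes around the GATA6 choice were counted too, beside 44.5%, 55.4%, 51.9% and 60.6% of all tested genes called in IAA at days 0, 2, 4 and 6 and 53.0% in BPK25 at day 4. Of 18 tested genes of FGF signalling through ERK, 10 rose and 2 fell in IAA at day 0, 6 rose and 9 fell at day 2, 10 rose and 3 fell at day 4 and 6 rose and 5 fell at day 6, with median log2 fold changes of 0.14, -0.21, 0.28 and 0.06. In BPK25 at day 4, 9 rose and 2 fell (median 0.17), beside 26.2% of all tested genes called higher and 26.8% lower. Fgf4, the ligand made by pluripotent cells, had 62.2 ± 2.6 CPM in IAA at day 0, against 18.7 ± 1.8 CPM in DMSO (log2 fold change 1.74 ± 0.09), and 6.67 ± 0.29 CPM in IAA at day 2, against 18.2 ± 0.1 CPM in DMSO (-1.44 ± 0.13). Dusp6, a phosphatase induced by ERK, had 71.4 ± 2.5 CPM in BPK25 at day 4, against 23.7 ± 0.4 CPM in DMSO (1.59 ± 0.07). Of 10 naive pluripotency genes, 7 rose and 1 fell in IAA at day 0, 9 fell at day 2, 1 rose and 7 fell at day 4 and 1 rose and 6 fell at day 6, with medians of 0.59, -0.94, -0.64 and -0.68. Under BPK25 at day 4, 4 rose and 5 fell (median -0.15). Nanog had 55.7 ± 4.5 CPM in IAA at day 2, against 127 ± 9 CPM in DMSO (-1.19 ± 0.06). Of 6 other PDGF ligands and receptors, 3 rose in IAA at day 0, 1 rose and 2 fell at day 2, 2 rose at day 4 and 3 rose at day 6, shares near or below those of all genes. Under BPK25 at day 4, 1 rose and 1 fell. Pdgfa, a ligand of Pdgfra, had 13.4 ± 1.5 CPM in IAA at day 0, against 7.19 ± 1.07 CPM in DMSO (0.90 ± 0.15), and 3.60 ± 0.47 CPM in IAA at day 2, against 6.95 ± 1.01 CPM in DMSO (-0.96 ± 0.19), while Pdgfra itself was lower at day 0 and higher at day 2.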
